A study of Mus musculus with 11 samples.

Results

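RGS proteins (regulators of G protein signalling) were examined through 6 mouse genes, Rgs2, Rgs3, Rgs4, Rgs5, Rgs10 and Rgs16, of the 27998 genes in the 10X table. They were taken by symbol from a list, which was chosen with earlier results of these data known, and all 6 were found. The cells were hepatic mesenchymal cells of Pdgfrb-BAC-eGFP mice, in which GFP is placed under Pdgfrb control on a bacterial artificial chromosome, and were sorted as GFP-positive cells without CD45 or CD102. The mice were males of 10 to 16 weeks on a C57BL/6 background, and every group carried the transgene.

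The 10X data were 5 libraries, each a pool of 3 mice and therefore 1 sample: uninjured mice after digestion protocol 1 and after protocol 2, mice 72 h after a single dose of carbon tetrachloride (CCl4) with protocol 2, and mice given CCl4 2 times a week for 6 weeks with protocol 1 and with protocol 2. Smart-seq2, a full-length method with 1 cell per well, was run on 6 plates holding wells of uninjured mice, of mice 14 days after bile duct ligation (BDL), and of mice given CCl4 for 6 weeks. Wells of 1 mouse name of the plate layout on 1 plate were summed and are called a portion, and portions of the same name on several plates may be the same mouse. Protocol 1 yields vessel-wall and portal cells, and protocol 2 is the procedure used for hepatic stellate cells (HSCs). Conditions were therefore compared only within a protocol in 10X and in the Smart-seq2 tests, which used plates 1 to 5, of protocol 1. Plate 6 has no protocol in its label. It held all HSC-like wells and 1 of the 6 uninjured portions given for VSMC-like and FB-like wells. The 10X HSC-like cells described here came from protocol 2 and the 3 other types of the uninjured and 6-week libraries from protocol 1, so between HSC-like cells and those types the type and the protocol cannot be told apart.

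RGS proteins speed the hydrolysis of GTP on G protein alpha subunits and so shorten the signal of G protein-coupled receptors. In vessel walls they limit the response to angiotensin, endothelin and thrombin, which make contractile cells tighten. Rgs5 is widely used as a gene of pericytes and of HSCs, the pericyte-like cells of the liver sinusoid. Rgs4, Rgs5 and Rgs16 proteins start with a cysteine that the N-degron pathway can oxidise and use to mark them for destruction, so their RNA need not follow their protein.

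Cells were clustered without the 6 genes and clusters were named from marker lists as fibroblast-like (FB-like), HSC-like, vascular smooth muscle-like (VSMC-like) and pericyte-like. Among the 4 mesenchymal types, protocol 2 gave 6850 uninjured, 7123 CCl4 72 h and 5450 CCl4 6-week HSC-like cells. Protocol 1 gave 4019 and 2623 FB-like, 1443 and 2201 VSMC-like and 223 and 801 pericyte-like cells in the uninjured and 6-week libraries. Total UMIs (unique molecular identifiers, 1 per captured RNA molecule) were 25965670 to 86664085 per library. Levels are CPM, the UMIs of a gene scaled to the common total of all UMIs of a group of cells, and intervals are exact 95% Poisson intervals that cover counting error only. Libraries shared 33 to 74 cell barcodes in pairs. Summed CPM of the markers of leucocytes was at most 62.9 and of Schwann cells at most 3.49 in any type and library. Markers of endothelial cells reached 161.8, in uninjured HSC-like cells and mostly through Clec14a (158.9), those of mesothelial cells 85.5 and those of cholangiocytes 74.0. Those of hepatocytes reached 608.5 in the FB-like cells at 72 h and were at most 55.4 in the other groups.

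Rgs5 and Rgs4 stand beside each other on mouse chromosome 1 (GRCm38). Rgs5 lies at chr1:169655501-169695813 on the plus strand and Rgs4 at chr1:169741477-169747642 on the minus strand, 45.7 kb apart, with their 3′ ends facing and 0 protein-coding genes between them. Rgs2 (chr1:143999338-144004161, minus strand) and Rgs16 (chr1:153740349-153745468, plus strand) lie elsewhere on the same chromosome. Rgs3 lies at chr4:62559847-62704001 on the plus strand and Rgs10 at chr7:128373621-128418758 on the minus strand. Because Rgs5 and Rgs4 had the most similar profiles of the 6 genes, the 250 bases before the start of each are shown from RefSeq (GRCm38.p6), 5′ to 3′ on the strand of the gene, at chr1:169655251-169655500 and chr1:169747643-169747892. Capitals mark matches, searched on both strands, to the TATA-type motifs TATAAA and also TATATA, to the promoter motif CCAAT, which reads as ATTGG on the other strand, and to the motif TGACG, which reads as CGTCA there.
Rgs5: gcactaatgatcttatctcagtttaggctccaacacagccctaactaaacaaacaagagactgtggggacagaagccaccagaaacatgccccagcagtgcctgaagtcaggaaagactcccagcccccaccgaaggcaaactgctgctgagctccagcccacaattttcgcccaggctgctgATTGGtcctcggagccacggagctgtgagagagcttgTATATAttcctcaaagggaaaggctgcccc
Rgs4: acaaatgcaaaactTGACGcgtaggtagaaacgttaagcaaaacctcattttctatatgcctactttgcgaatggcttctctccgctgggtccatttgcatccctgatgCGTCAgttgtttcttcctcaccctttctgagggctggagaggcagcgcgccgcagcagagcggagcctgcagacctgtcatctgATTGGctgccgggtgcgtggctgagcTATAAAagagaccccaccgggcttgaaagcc

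Both windows held a TATA-type match close to the start, TATATA 30 bases before it in Rgs5 and TATAAA 31 bases before it in Rgs4. Of 32851 promoter windows of the same length, 5.25% held TATATA and 12.4% held TATAAA. Both also held CCAAT, 67 bases before the start in Rgs5 and 57 in Rgs4, as did 33.8% of all windows. TGACG was found 2 times in Rgs4 and 0 times in Rgs5, and in 17.8% of all windows. A CArG box, the motif of the smooth muscle regulator SRF, was in neither window and in 1.47% of all windows. No 2 of these matches overlapped.

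Rgs5 marked the contractile and stellate cells and was low in fibroblasts. In uninjured 10X libraries it stood at 5187 CPM (5000 to 5380) in pericyte-like, 2471 CPM in HSC-like, 798 CPM (773 to 822) in VSMC-like and 12.5 CPM (10.97 to 14.12) in FB-like cells. The intervals of the 3 types from protocol 1 do not touch, and the HSC-like level, from protocol 2, is given beside them. Rgs5 was detected with at least 1 UMI in 99.8% of uninjured HSC-like cells at a median of 6718 UMIs per cell and in 5.18% of uninjured FB-like cells at a median of 4902.

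**Figure D1:**
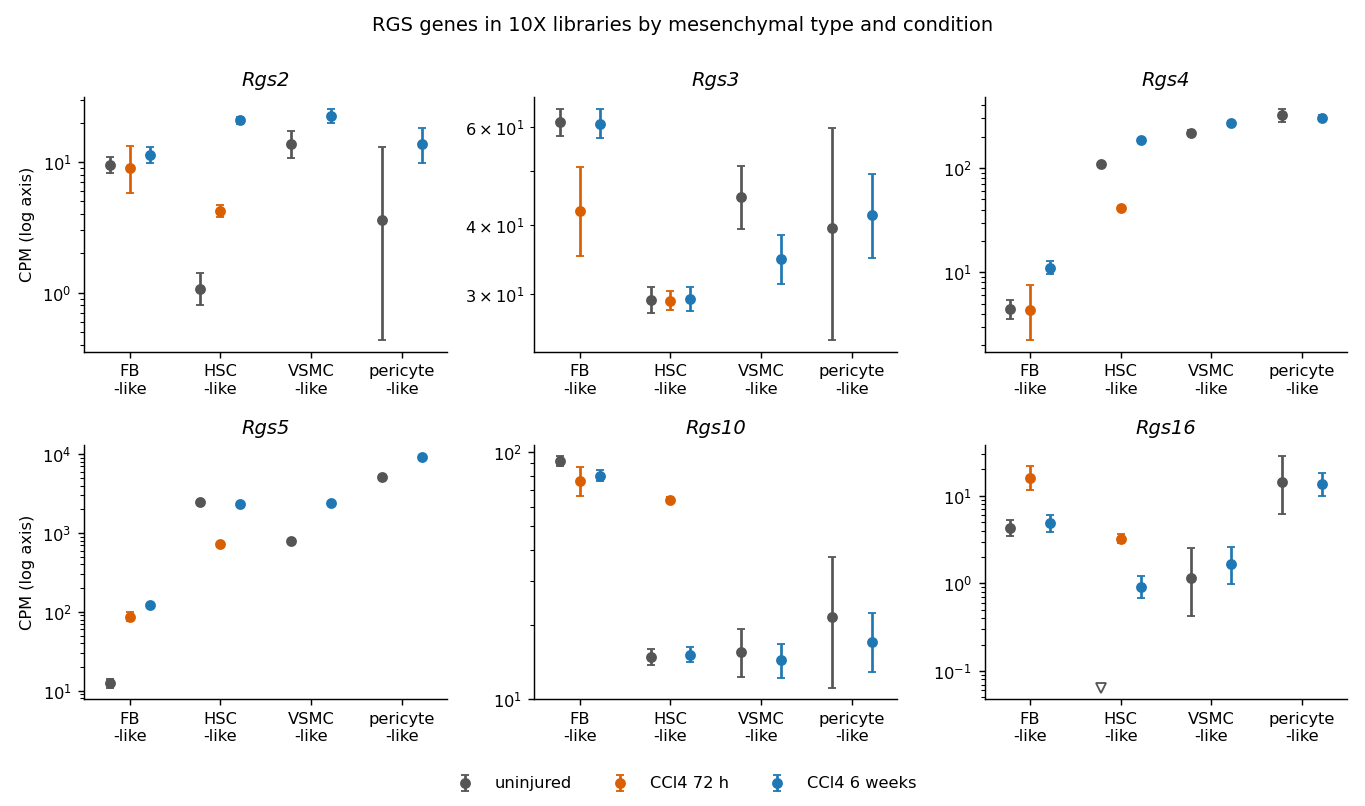
Level of each of the 6 RGS genes in CPM (log axis) by mesenchymal type, 1 point per 10X library, with exact 95% counting intervals as bars. The open triangle marks 0 UMIs and is drawn at the floor of 3 counts. Rgs5 was lower at 72 h in HSC-like cells (718 CPM against 2471), where Rgs10 was higher (64.2 against 14.8), and Rgs5 was higher after 6 weeks in FB-like, VSMC-like and pericyte-like cells.

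The Smart-seq2 wells gave the same order for Rgs5, in RPM, the same scale for reads, and the wells were separate cells. Uninjured pericyte-like wells had 14368 RPM in the 1 portion with at least 10 wells, and uninjured HSC-like wells had 3312 and 3413 RPM in the 2 portions. The 6 uninjured VSMC-like portions ranged from 449.9 to 3605 RPM with a median of 1585, and the 6 FB-like portions from 1.19 to 14.9 RPM with a median of 6.50. VSMC-like and HSC-like portions overlapped, since 1 VSMC-like portion lay above both HSC-like portions. The type of a well was set by clustering the same wells, so these differences are a description with no test.

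Within VSMC-like cells Rgs5 depended on the cluster. In uninjured protocol 1 cells it was 488 CPM in the cluster led by Tcap, Pln and Corin, 2657 CPM in the cluster led by Rergl and Kcna5 and 422 CPM in the cluster with Npnt and Tnnt2 among its 10 leading genes. Smart-seq2 wells fell into clusters that shared leading genes with these. There, over the wells of all conditions, the Tcap and Corin cluster had 449 RPM over 380 wells, the Rergl cluster 6301 RPM over 304 wells, the Npnt cluster 399 RPM over 77 wells, and the pericyte-like cluster led by Higd1b 12960.5 RPM over 143 wells. In no portion with at least 5 wells of both did Rgs5 in the Tcap cluster (134.5 to 1253 RPM) reach its level in the Rergl cluster (3518 to 8318 RPM). The share of Rergl wells differed between portions, from 5 of 18 to 52 of 71 VSMC-like wells after CCl4, so a VSMC-like level mixes unequal numbers of both clusters.

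At 72 h after CCl4, Rgs5 in HSC-like cells was 718 CPM against 2471 CPM in uninjured cells, 3.44-fold lower (counting interval 3.41 to 3.47). Rgs4 was 41.6 against 108 CPM, 2.61-fold lower (2.50 to 2.73), and Rgs10 was 64.2 against 14.8 CPM, 4.33-fold higher (4 to 4.70). Rgs3 was 29.2 against 29.3 CPM. There is 1 library per condition, so no test between conditions was possible and none of these differences has a replicate check. HSC-like cells of the uninjured library sat mainly in clusters led by Tnfsf9 and Arc, by Fcna and Ptprt, and by Gcgr and Clec4g, and those at 72 h in clusters led by Ankrd1 and Cthrc1, by Apoc1 and Dbp, and by Gm11789 and C6, and in a cycling cluster.

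Of the 3350 genes with at least 50 CPM in the higher of these 2 conditions, 7.25% were at least 2-fold higher at 72 h and 10.3% at least 2-fold lower, 17.6% in all. Of the 6 RGS genes 3 passed that minimum, of which 1 was higher (Rgs10) and 2 were lower (Rgs4 and Rgs5). Rgs10 passed only through its 72 h level and Rgs4 only through its uninjured level, so each could be called in 1 direction only. Other lists differed at 72 h too. Of the 9 HSC markers 7 were at least 2-fold lower, all 3 collagen genes tested were at least 2-fold higher, and all 5 cycling genes were higher. The cycling genes passed the minimum only through their 72 h level, so they could be called only as higher. Markers of the other types differed as well. Of the 12 FB markers listed 3 passed the minimum, and these 3 were at least 2-fold higher. Of them, Dpt and Gpx3 passed only through their 72 h level, so they could be called only as higher. Of the 9 VSMC markers 4 passed and 2 were at least 2-fold higher. The medians of the FB and VSMC markers that passed were 3.02 and 1.00 on the log2 scale, against -0.15 over all genes. Of the 5 pericyte markers 2 passed and 1, Abcc9, was lower. Of 8 heat shock genes 6 were at least 2-fold lower and of 9 immediate-early genes 4 were lower. The part of these lists in the RGS values was not tested.

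The lower level of Rgs5 was not even among the 72 h HSC-like cells. It was 395 CPM in the largest cluster (3254 cells, led by Ankrd1 and Cthrc1), 409 CPM in the cluster led by 2810417H13Rik and Hist1h2ap, 1035 CPM in the cluster led by Apoc1 and Dbp, 1361 CPM in the cluster led by Prc1 and Hmmr, and 1746 CPM in the cluster led by Gm11789 and C6. All 5 lay under the 2471 CPM of uninjured cells. Rgs4 followed the same split, at 13.7 and 14.9 CPM in the first 2 of these clusters and at 35.7, 142 and 149.5 CPM in the other 3. Rgs10 ran from 34.7 to 90.5 CPM over the 5 clusters and was highest in the Hist1h2ap cluster.

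When the 72 h cells were split in 4 equal bins by the share of their UMIs on collagen genes, Rgs5 ran from 1441 CPM in the lowest bin through 789 and 483 to 334 CPM in the highest, and Rgs4 from 120 to 12.7 CPM. Rgs10 went the other way, from 45.5 to 77.4 CPM. In uninjured HSC-like cells the same split gave a smaller range for Rgs5, 2680 to 2136 CPM, and none in 1 direction for Rgs10, 15.3, 12.4, 13.9 and 18.1 CPM. HSC-like cells with UMIs of 3 or more of the cycling genes had Rgs10 at 87.0 CPM at 72 h (1008 cells) against 58.6 CPM in the other 6115 cells. Among uninjured cells the 28 such cells had 76.0 CPM (48.7 to 113) against 14.4 CPM in the rest.

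After 6 weeks of CCl4 the level over all HSC-like cells was higher for Rgs4 and slightly lower for Rgs5. Rgs4 was 186.5 CPM against 108 CPM in uninjured cells, 1.72-fold higher (1.66 to 1.78), while Rgs5 was 2312 against 2471 CPM, a ratio of 0.936 (0.928 to 0.943). Neither reached 2-fold over all HSC-like cells, and of 3233 genes with at least 50 CPM, 3.4% were at least 2-fold higher and 1.7% at least 2-fold lower, 5.1% in all. HSC-like cells of the uninjured library sat mainly in clusters led by Ptprt, by Cxcl10 and by Ngfr, and those of the 6-week library in clusters led by Hk2, by Ankrd1 and by Saa3. In all 5 HSC-like clusters with at least 50 cells of both libraries both genes were higher after 6 weeks, Rgs5 by 1.32-fold to 1.61-fold. Rgs4 was higher by 1.16-fold (0.97 to 1.39) in the Hk2 cluster, 1.46-fold in the Ankrd1 cluster, 2.62-fold in the Ngfr cluster, 3.71-fold in the Cxcl10 cluster and 3.82-fold in the Ptprt cluster. Each of these ratios rests on few cells of 1 library. The Ptprt, Cxcl10 and Ngfr clusters held 107, 124 and 85 of the 6-week cells. The Hk2 and Ankrd1 clusters held 139 and 271 of the uninjured cells. However, 1167 of the 5450 cells of that library were in a cluster led by Saa3 and Lcn2 with Rgs5 at 1177 CPM and Rgs4 at 40.8 CPM, and this cluster held 33 uninjured protocol 2 cells. For Rgs5 the ratio over all HSC-like cells and the ratios within clusters therefore point in opposite directions, and for Rgs4 they point the same way.

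**Figure D2:**
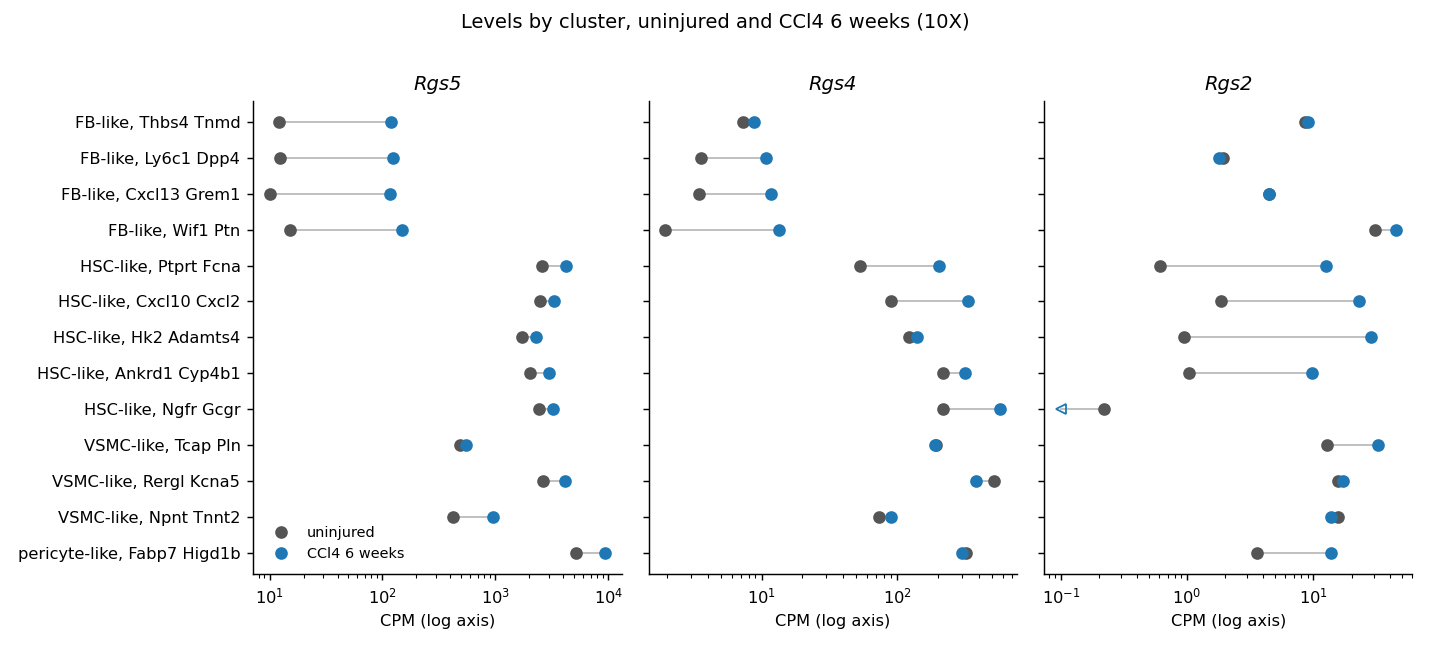
Rgs5, Rgs4 and Rgs2 in CPM (log axis) in each 10X cluster with at least 50 cells of both the uninjured and the CCl4 6-week library of 1 protocol, named by type and by genes among its 10 leading genes. Lines join the 2 libraries and the open triangle marks 0 UMIs, drawn near the axis start. Rgs5 was higher after 6 weeks in every cluster drawn, by 9.74-fold to 11.6-fold in the 4 FB-like clusters and by 1.12-fold to 2.27-fold in the VSMC-like ones.

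Rgs4 divided HSC-like cells by their place on the portal to central axis. The study put Rgs4 on its list of portal genes from these same libraries, so the gene was taken out of the score, and its pattern along the score is a description and not independent evidence. From the bin with the lowest to that with the highest portal minus central score, Rgs4 ran from 34.8 through 51.9 and 102 to 243 CPM in uninjured cells. It ran from 12.5 to 129 CPM at 72 h and from 61.3 to 440 CPM after 6 weeks. In the 2 HSC-like Smart-seq2 portions it ran from 51.1 to 936 RPM and from 66.0 to 460 RPM.

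Rgs5 did not share this axis in uninjured cells, where it ran from 2612 CPM in the most central bin to 2258 CPM in the most portal one, and from 3815 to 2887 RPM and from 3407 to 3152 RPM in the Smart-seq2 portions. After CCl4 it leaned the other way. At 72 h the first 3 bins had 538, 490 and 528 CPM and the most portal bin had 1433 CPM, and after 6 weeks the bins ran from 2138 to 2683 CPM.

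**Figure D3:**
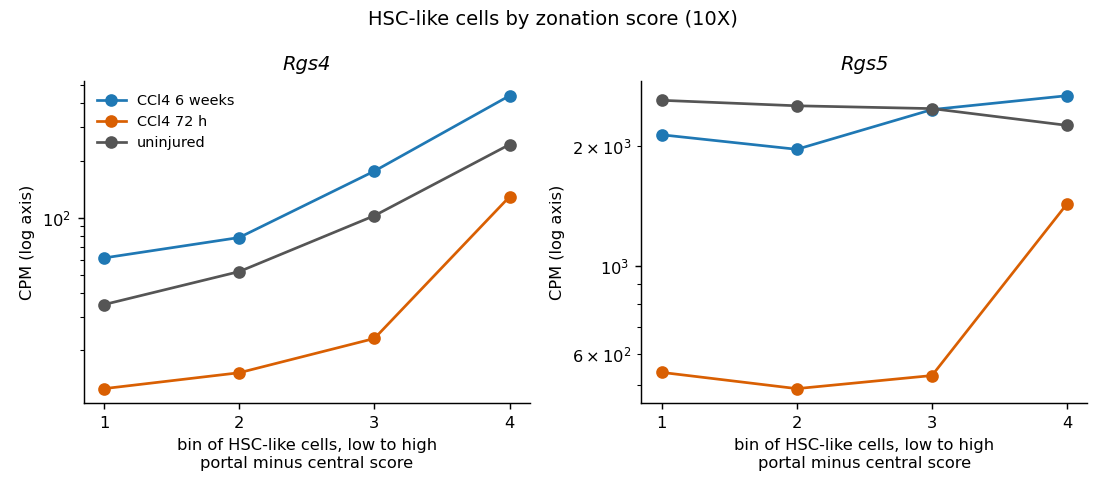
Rgs4 and Rgs5 in CPM (log axis) in 4 equal bins of the HSC-like cells of each protocol 2 library, ordered by portal minus central score, 1 point per bin. Rgs4 was higher in each more portal bin of all 3 libraries (34.8 to 243 CPM in uninjured cells), and at 72 h Rgs5 was 1433 CPM in the most portal bin against 490 to 538 CPM in the others.

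In vessel-wall cells Rgs5 was higher after 6 weeks of CCl4. It was 2405 CPM against 798 CPM in VSMC-like cells, 3.02-fold (2.92 to 3.12), and 9322 CPM against 5187 CPM in pericyte-like cells, 1.80-fold (1.73 to 1.87). Among VSMC-like cells 2 of the 6 RGS genes passed the 50 CPM minimum and 1 was at least 2-fold higher, where 1.61% of 2924 genes were higher and 0.239% lower, 1.85% in all. Within clusters the difference was smaller, 1.12-fold in the Tcap cluster, 1.57-fold in the Rergl cluster and 2.27-fold in the Npnt cluster. The Rergl cluster held 206 of 1443 VSMC-like cells in the uninjured library and 1029 of 2201 after 6 weeks. When each library was clustered alone, the ratio was 1.42, under 2-fold, with 1840 CPM after 6 weeks and 1293 CPM uninjured. The groups were then unlike, since the uninjured library gave no pericyte-like cluster, and 1 of its VSMC-like clusters, of 507 cells, had the pericyte marker Higd1b among its leading genes. With pericyte-like cells counted as VSMC-like, an alternative chosen after seeing the data, the ratio was 3.25 (3984 against 1225 CPM). Pericyte markers were higher in the VSMC-like cells after 6 weeks as well. Of 4 tested, 1 was at least 2-fold higher, Higd1b at 203 against 52.6 CPM, with a median of 0.48 on the log2 scale against 0.01 over all genes. The summed level of all 5, none at 0 in either library, was 1078 against 717.5 CPM, and its part in the Rgs5 values was not tested.

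Rgs4 in the same cells was 219 and 273 CPM in VSMC-like cells and 321.5 and 302 CPM in pericyte-like cells, uninjured and after 6 weeks, and in the Rergl cluster it was lower, 381 against 517 CPM. Among pericyte-like cells Rgs4 and Rgs5 passed the minimum and 0 of them reached 2-fold, where 3.7% of 3268 genes were at least 2-fold higher and 1.38% lower, 5.08% in all. Rgs3 in VSMC-like cells was 34.7 against 44.9 CPM, a ratio of 0.772 (0.654 to 0.913).

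In FB-like cells Rgs5 went from 12.5 to 124 CPM after 6 weeks, 9.93-fold (8.70 to 11.4), and by a like factor in all 4 FB-like clusters. With each library clustered alone it was 29.98 and 193.9 CPM, 6.47-fold. Of the 3 RGS genes over the minimum there it was the 1 that reached 2-fold, where 1% of 3099 genes were at least 2-fold higher and 0.323% lower, 1.32% in all. Rgs5 passed the minimum only through its 6-week level, so it could be called only as higher. Genes of contractile cells were higher in FB-like cells as well, and 5 of 6 VSMC markers tested, of 9 listed, were at least 2-fold higher. As a share of the level in the VSMC-like and pericyte-like cells of the same library, FB-like Rgs5 was 1.02% uninjured and 3.11% after 6 weeks, Acta2 1.60% and 4.79%, Myh11 1.59% and 4.95%, and Higd1b 1.74% and 5.91%. RNA carried over from contractile cells was not measured apart from RNA made in FB-like cells, and its part was not tested. The 186 FB-like cells of the 72 h library, which has no uninjured FB-like cells of its protocol beside it, had Rgs5 at 86.6 CPM. Their FB markers summed to 3713 CPM and their VSMC markers to 5374 CPM, against 16440 and 845 CPM in uninjured FB-like cells of protocol 1. The FB-like name is therefore less sure for these cells.

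Rgs10 and Rgs3 stood higher in FB-like cells than in the VSMC-like and pericyte-like cells of the same uninjured library, though for Rgs3 the interval in pericyte-like cells (24.8 to 59.8 CPM, 22 UMIs) overlapped that in FB-like cells (57.9 to 64.8 CPM). Rgs10, a small RGS protein that acts on the Gi family, was 91.9 CPM (87.7 to 96.2) in uninjured FB-like cells against 15.5 CPM (12.3 to 19.3) in VSMC-like cells of the same library, and 80.3 CPM in FB-like cells after 6 weeks. Smart-seq2 gave 10.2 to 75.6 RPM in the 6 uninjured FB-like portions, with a median of 42.3, and 0 to 15.7 RPM in the 6 VSMC-like portions, with a median of 1.18. The 2 sets of portions overlapped through 1 VSMC-like portion. Rgs3 in Smart-seq2 did not set FB-like wells apart. It was 5.68 to 43.3 RPM in the 6 uninjured FB-like portions, with a median of 11.5, 5.20 and 18.2 RPM in the 2 HSC-like portions, and 2.12 to 10.54 RPM in the 6 VSMC-like portions, with a median of 3.26, and all 3 ranges overlap. In 10X, Rgs3 was 61.3 CPM in uninjured FB-like cells and 60.9 CPM after 6 weeks, and differed among FB-like clusters, from 27.7 CPM in the Ly6c1 and Dpp4 cluster to 89.7 CPM in the Thbs4 and Tnmd cluster of the uninjured library.

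Rgs2, which acts mainly on Gq, singled out the FB-like cluster led by Wif1. It was 30.9 CPM there in uninjured cells and 44.8 CPM after 6 weeks, against 1.79 to 9.03 CPM in the other 3 FB-like clusters over both libraries. In uninjured Smart-seq2 portions with at least 5 wells, the FB-like cluster led by Notum and Wif1 had Rgs2 at 434 to 1663 RPM, against at most 103 RPM in the other 3 FB-like clusters, and Rgs10 at 42.9 to 133 RPM, against at most 40.4 RPM. After CCl4 the clusters overlapped, since the FB-like cluster led by Comp and Col11a1 had Rgs2 at 4.66 to 415 RPM against 146 to 801 RPM in the Notum and Wif1 cluster. After BDL the Comp and Col11a1 cluster had 183 to 1004 RPM. No BDL portion had at least 5 wells of the Notum and Wif1 cluster, so these clusters could not be compared after BDL.

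Rgs2 was almost absent from uninjured HSC-like cells, with 50 UMIs in 6850 cells (1.08 CPM, 0.7999 to 1.421). It was 4.22 CPM at 72 h and 20.9 CPM (19.7 to 22.2) after 6 weeks, 19.4-fold the uninjured level (14.6 to 26.3). The 6-week level was under the 50 CPM minimum. FB-like cells of the 6-week library of protocol 1 had 11.4 CPM. After 6 weeks 9.47% of HSC-like cells had at least 1 UMI of it, as did 4.04% of FB-like cells of the protocol 1 library, with medians of 9893 and 6349 UMIs per cell. In 4 equal bins by the share of immediate-early genes, Rgs2 ran from 5.82 through 16.1 and 26.1 to 33.9 CPM after 6 weeks. Clusters led by Ptprt, Cxcl10, Hk2 and Ankrd1 were each higher after 6 weeks, at 12.5 (5.03 to 25.8), 22.9, 28.5 and 9.67 CPM. The cluster led by Ngfr and Gcgr had 0 UMIs in its 85 cells of that library, which allows up to 6.09 CPM against 0.218 CPM in its uninjured cells, so a difference was not detectable there at this depth.

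Rgs16, whose protein acts on the Gi and Gq families, was not detected in uninjured HSC-like cells. It had 0 UMIs in the 6850 uninjured HSC-like cells, which allows up to 0.0647 CPM by the floor of 3 counts and 0.0795 CPM by the exact interval, 3.24 CPM (2.87 to 3.65) at 72 h and 0.920 CPM after 6 weeks. By the lower end of the exact interval of the ratio it was at least 40.5-fold higher at 72 h and at least 11.1-fold higher after 6 weeks. With cells thinned to 2000 UMIs, the levels divided by the floor of 3 counts over the group were 14.8 and 5.36. At 72 h it was 4.88 CPM in the Ankrd1 cluster and 3.92 CPM in the Hist1h2ap cluster, and at most 0.648 CPM in the other 3. Pericyte-like cells had 14.4 CPM (6.204 to 28.31) uninjured and 13.7 CPM after 6 weeks. In Smart-seq2 portions with at least 5 wells, the pericyte-like cluster had 101 to 949 RPM in 3 uninjured, 55.1 to 816 RPM in 3 CCl4 and 0 to 240 RPM in 5 BDL portions. The FB-like cluster led by Notum and Wif1 had 25.8 to 252 RPM in 5 uninjured portions, and the FB-like cluster led by Comp and Col11a1 0 to 21.2 RPM in 6 uninjured and 14.3 to 407 RPM in 5 BDL portions.

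Smart-seq2 allowed a test between conditions for VSMC-like and FB-like wells, with edgeR's quasi-likelihood test on portion sums, plate as a term and Benjamini-Hochberg adjustment over all genes. Of the 36 gene and comparison pairs for the 6 RGS genes (BDL and CCl4 against uninjured in each type, and the difference of each effect between types), 0 had an adjusted p under 0.05 and 6 had an unadjusted p under 0.05. The test called 1 of 13885 genes for BDL in VSMC-like wells, which is 0.0072%, and 0% of genes in the other 5 comparisons. The 1 gene, named after its value was seen, was Sparcl1, with a log2 fold change of 1.23 (SE 0.14, adjusted p = 0.0137, edgeR). The edgeR test gives no standard error, so each SE is derived, as the absolute log2 fold change over the square root of its F statistic. At an unadjusted p under 0.05 there were 849 genes for BDL and 432 for CCl4 in VSMC-like wells, 834 and 419 in FB-like wells, and 646 and 496 for the differences between types. DESeq2 called 334, 276, 372, 150, 156 and 145 genes in the same order. On simulated counts, 26% of genes changed 4-fold were called for BDL and 21% for CCl4 in VSMC-like wells, 15% and 8% in FB-like wells, and 5% and 10% for the differences between types, so changes of that size could be missed.

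Rgs5 in the 5 BDL VSMC-like portions was 1932, 2675, 4282, 4586 and 5258 RPM, and in the 5 uninjured portions of plates 1 to 5 1152, 1344, 1827, 1832 and 3605 RPM. The groups overlap, and on plate 4 the uninjured portion (3605 RPM) was above the BDL one (1932 RPM). The log2 fold change was 1.13 (SE 0.62, adjusted p = 0.851, edgeR). In the Rergl cluster alone, the BDL portions ran from 5568 to 8005 RPM and the uninjured ones from 3518 to 6909 RPM. After CCl4 the 4 VSMC-like portions had 1178, 1281, 1808 and 6308 RPM, and the highest came from a portion in which 52 of 71 VSMC-like wells were in the Rergl cluster. These portions overlapped the uninjured ones, and Rgs5 was not called for CCl4. Its log2 fold change, given with the alternatives below, changed sign as plates were left out.

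In pericyte-like wells Rgs5 was 12879, 13314, 14254 and 14298 RPM in the 4 BDL portions, 17070 RPM in the CCl4 portion and 14368 RPM in the uninjured portion with at least 10 wells. Over portions with at least 5 wells, the 3 uninjured ones had 8220, 9064 and 14368 RPM, the 5 BDL ones 12659 to 14298 RPM and the 3 CCl4 ones 6661, 7267 and 17070 RPM, so the conditions overlapped. With 1 uninjured portion of at least 10 wells this type was not tested. In FB-like wells Rgs5 was 4.79, 5.82, 101 and 174 RPM after BDL and 0.702, 2.14, 9.6 and 54.9 RPM after CCl4, and both sets overlapped the uninjured portions. The log2 fold changes were 1.74 (SE 1.62, adjusted p = 0.934, edgeR) and 2.02 (SE 1.79, adjusted p = 1, edgeR). Summed markers of cholangiocytes (bile duct cells) were 76.8 to 2094 RPM over the FB-like BDL portions. They were 10.3 to 25.6 RPM over the uninjured and 1.485 to 22.2 RPM over the CCl4 portions of that type. Their part in the RGS values of FB-like wells after BDL was not tested.

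Rgs2 in VSMC-like wells had a median of 259 RPM after BDL, 94.5 RPM after CCl4 and 89.1 RPM over the 6 uninjured portions. Its BDL portions had 88.9, 142, 259, 289 and 337 RPM, the CCl4 portions 47.6, 88.3, 101 and 333 RPM, and the uninjured portions of plates 1 to 5 28.0, 59.9, 69.0, 109 and 127 RPM. Both sets of injured portions overlap the uninjured ones, and a further uninjured portion on plate 6, outside the test, had 240.0 RPM. The log2 fold change was 1.33 after BDL (SE 0.53, adjusted p = 0.795, edgeR) and 1.54 after CCl4 (SE 0.63, adjusted p = 1, edgeR). The difference of the BDL effect between VSMC-like and FB-like wells was 2.02 on the log2 scale (adjusted p = 1, edgeR).

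**Figure D4:**
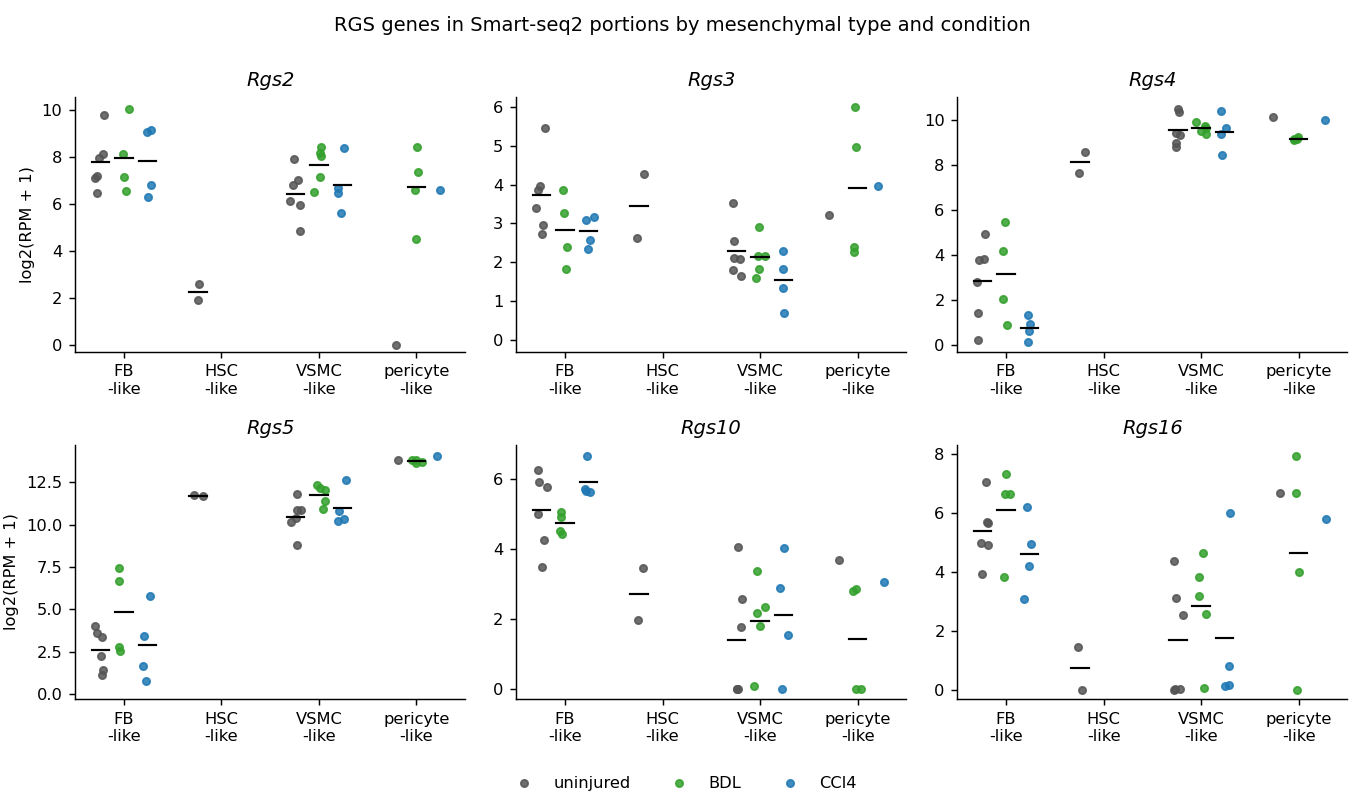
log2(RPM + 1) of the 6 RGS genes in Smart-seq2 portions with at least 10 wells of a type, 1 point per portion, with the group mean as a bar where there are at least 2 portions. Rgs5 in FB-like wells reached 174 RPM after BDL, and VSMC-like Rgs2 overlapped between uninjured and injured portions.

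Rgs4 in VSMC-like wells overlapped between all conditions, with 658 to 948 RPM in the BDL portions, 348 to 1324 RPM in the CCl4 portions and 441 to 1434 RPM in the 6 uninjured portions. In FB-like wells it was near the floor, with 0.0780, 0.522, 0.907 and 1.485 RPM in the 4 CCl4 portions and 1.67, 5.87, 12.5, 13.2 and 29.8 RPM in the uninjured portions of plates 1 to 5. These 2 groups do not overlap, but the fold change of -4.10 on the log2 scale had an adjusted p = 1 (SE 1.47, edgeR), and a further uninjured portion on plate 6 had 0.169 RPM. In 10X, FB-like Rgs4 went the other way, from 4.39 CPM (3.52 to 5.41) uninjured to 11.1 CPM (9.53 to 12.8) after 6 weeks. Both 10X levels were under the 50 CPM minimum, with 1 library per condition and no test. Rgs16 in FB-like wells had 13.2 to 160 RPM after BDL, 7.57 to 72.5 RPM after CCl4 and 14.4 to 132 RPM uninjured, and its BDL log2 fold change was 1.87 (SE 0.83, adjusted p = 0.854, edgeR).

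Other genes of the pathway gave little. Of the 15 other RGS genes listed, 0 reached 50 CPM in any of the 5 10X comparisons. Of 5 G alpha genes tested in HSC-like cells at 72 h and 6 G beta and gamma genes, 0 reached 2-fold, with medians of -0.13 and 0.21 on the log2 scale against -0.15 over all genes. Of 6 receptors 1 did, where 17.6% of all genes did. It was Agtr1a, the angiotensin II receptor, at 401 against 877 CPM (2.19-fold lower), and F2r, the thrombin receptor, was 81.6 against 157 CPM. After 6 weeks F2r was 62.4 against 20.7 CPM in VSMC-like cells and 146 against 44.9 CPM in pericyte-like cells, 3.01-fold and 3.25-fold higher, and it was the 1 receptor past 2-fold of 3 tested in VSMC-like and 5 in pericyte-like cells, where 1.85% and 5.08% of all genes were. F2r passed the minimum in both types only through its 6-week level, so it could be called only as higher. Of 6 N-degron enzymes 2 were tested in HSC-like cells at 72 h and 0 reached 2-fold. Ado, which oxidises the N-terminal cysteine and was 1 of these 2, was 43.0 against 66.7 CPM, and Ate1, which then adds arginine, was under the minimum with 19.4 against 40.0 CPM. Of 9 effector genes 3 were tested there (Itpr1, Rock1 and Rock2) and 0 reached 2-fold, with a median of -0.69. In the Smart-seq2 tests 0 genes of these lists were called.

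Over the 37 portion-by-type sums of Smart-seq2, the genes with the profile most like each RGS gene were found by Pearson's r of log2(RPM + 1), among about 7570 genes with a mean of at least 20 RPM. The sums share plates and mice, so r is a description and has no p. For Rgs5 they were Mtus1 (r = 0.936), Esam (0.934) and Rgs4 (0.926), and for Rgs4 Tinagl1 (0.945), Mcam (0.939) and Nes (0.937). For Rgs10 they were Kdelr2 (0.882), Gsta3 (0.825) and Ptk7 (0.821), and its r with Rgs5 was -0.71. The other 3 genes had lower best values, Crispld2 with Rgs2 (0.769), Gas5 with Rgs16 (0.769) and Lasp1 with Rgs3 (0.685).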

How the data were processed

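A total of 5 libraries of 10X Chromium v2 and 6 plates of Smart-seq2 were used. The authors aligned 10X reads to mm10 with Cell Ranger 2.1.0 and deposited counts of UMIs per gene and cell, and aligned Smart-seq2 reads with STAR to mm10 with eGFP and spike-ins, counted them with rpkmforgenes and deposited read counts per gene and well, both without normalization. Cells with fewer than 300 genes or over 30% mitochondrial UMIs were left out, and wells more than 3 median absolute deviations below the plate median in reads or genes or above it in spike-in share. The wells kept held 134794530 to 162445109 reads per plate.

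Cells were clustered with Leiden (leidenalg 0.10.2, scikit-learn 1.9.0, resolution 0.8, 10 components of 2000 variable genes, 30 neighbours), without the RGS and pathway genes. Uninjured cells were clustered once together with the 6-week cells and once with the 72 h cells. A cluster took the type whose markers had the highest mean level relative to their highest cluster, and got no name if its 10 leading genes held more markers of a different type or if under 3 of its own were detected. In the alternative with each library clustered alone the condition on leading genes was not applied, so some clusters there carry a name that their leading genes go against. Cells called as doublets were kept, and leaving them out was an alternative. A 10X gene counted as called when it differed at least 2-fold and the higher level was 50 CPM or more. Smart-seq2 sums of at least 10 wells were tested with edgeR 4.0.16 in R 4.3.3, with plate as a term, or portion for differences between types. DESeq2 1.42.0 was an alternative. The tests were checked on simulated counts.

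The 6 genes and all lists were chosen with earlier results of these data known. The text names all 6, at most 5 called genes per list, the 3 most similar genes of each, and other genes chosen after their values were seen. The promoter motifs were chosen after the sequences were read. Replicates are portions. Portions of the same plate carry separate mouse names, and the plate labels count them as separate mice. Nothing shows whether portions on different plates come from separate mice, so p-values measure the spread between portions.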

Additional observations from a re-analysis of the deposited data

Results flagged for a closer look

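In 9 of 42 groups of 4 to 6 Smart-seq2 portions, the highest portion stood apart from the rest by Dixon's criterion. The criterion is set to flag about 1 in 20 groups of independent, normally distributed values. RPM need not be so distributed and several flags come from the same portion, so 9 of 42 cannot be set against that rate. Among FB-like wells, the CCl4 portions had Rgs10 at 98.7 RPM in plate 5 CCl4 1 against 51.2 RPM in the next and Rgs5 at 54.9 RPM in plate 3 CCl4 2 against 9.60 RPM. The uninjured FB-like portions had Rgs16 at 132 RPM on plate 5 against 50.8 RPM, and on plate 2 Rgs2 at 890 RPM against 280.0 RPM and Rgs3 at 43.3 RPM against 14.7 RPM. Among VSMC-like wells, the uninjured portions had Rgs10 at 15.7 RPM on plate 2 against 4.84 RPM and Rgs3 at 10.54 RPM on plate 6 against 4.86 RPM. The CCl4 portions had Rgs16 at 63.4 RPM in plate 5 CCl4 1 against 0.773 RPM and Rgs5 at 6308 RPM in plate 3 CCl4 2 against 1808 RPM.

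In 10X, 2 genes had ratios of injured to uninjured CPM on opposite sides of 1, and with 1 library per condition the differences were not tested. Rgs4 in HSC-like cells had a ratio of 0.383 at 72 h and 1.72 after 6 weeks, against the same uninjured library. Rgs5 after 6 weeks had a ratio of 0.936 in HSC-like cells of protocol 2, against 3.02 in VSMC-like, 1.80 in pericyte-like and 9.93 in FB-like cells of protocol 1. In HSC-like cells the ratio was above 1 in each of 5 clusters with at least 50 cells of both libraries, though each had few cells of 1 library.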

How the results depend on the processing

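The number of genes called in Smart-seq2 depended on the tool and filter. In the order BDL and CCl4 in VSMC-like wells, then BDL and CCl4 in FB-like wells, DESeq2 called 334, 276, 372 and 150 genes, and edgeR without the expression filter 146, 22, 216 and 29. For the differences between types, DESeq2 called 156 genes for BDL and 145 for CCl4, and edgeR without the filter 1 for BDL. Without the plate term edgeR called 42 genes for BDL in VSMC-like and 15 in FB-like wells. For the BDL difference between types it called 4 without the portion block and 3 with portions of at least 5 wells. Leaving out 1 plate gave 0 to 2 genes for BDL in VSMC-like wells, 0 without plate 1, 2 or 4 and 2 without plate 3 or 5. The cause was not tested.

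Alternatives chosen after seeing the data were wider types, with pericyte-like wells counted as VSMC-like and the 162 wells of an unnamed cluster with FB as its best match counted as FB-like, wells summed by mouse name over plates, pericyte-like cells counted as VSMC-like, and single clusters. Wider types gave 2 genes for BDL in VSMC-like wells, 6 for BDL and 12 for CCl4 in FB-like wells, and 4 for each difference between types. Sums by mouse name gave 0 for BDL in VSMC-like and 1 in FB-like wells.

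Of the RGS genes' log2 fold changes in Smart-seq2 under alternatives, 371 kept their direction and side of the threshold, 44 changed sign and 5 passed the threshold that the test as reported did not. The last were, without the expression filter, Rgs16 in FB-like wells after BDL (1.87), Rgs2 in VSMC-like wells after BDL (1.32) and CCl4 (1.52) and Rgs5 in VSMC-like wells after BDL (1.13), and with DESeq2 the CCl4 difference of Rgs4 between types (3.70). None of the values that changed sign had been called.

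The values that changed sign are given beside the reported one, for leaving out plates as the lowest to highest. For the BDL difference between types, Rgs10 was 1.59 and -0.19 with wider types. Rgs16 was 1.22, and -0.10 with at least 20 wells, -0.25 with wider types and -2.77 to 3.52 as plates were left out. Rgs4 was 0.25, and -0.63 without the portion block, -0.58 with at least 5 wells and -0.42 to 1.49 as plates were left out. For the CCl4 difference between types, Rgs10 was 0.69, and -0.62 with wider types and -0.19 to 1.79 as plates were left out. Rgs16 was -0.28, and 1.38 without the portion block, 0.10 with at least 20 wells, 2.18 with wider types and -1.38 to 1.11 as plates were left out. As plates were left out Rgs2, at 0.76, ran from -0.051 to 1.37, and Rgs3, at 0.37, from -0.11 to 0.86. Rgs5 was 0.20, and -0.83 without the portion block, -0.37 with at least 20 wells and -0.31 to 1.22 as plates were left out.

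For BDL in FB-like wells, Rgs2 was 0.23, and -0.80 with at least 20 wells and -0.45 to 1.01 as plates were left out. Rgs4 was 0.35, and -0.90 with at least 20 wells and -0.63 to 1.26 as plates were left out. For CCl4 in FB-like wells, Rgs2 was 0.15, and -0.025 with wider types and -0.60 to 1.075 as plates were left out. For BDL in VSMC-like wells, Rgs10 was -0.27, and -1.65 to 2.34 as plates were left out. Rgs16 was -0.20, and 0.76 without the plate term, 0.42 summed by mouse name and -3.005 to 1.67 as plates were left out. Rgs4 was 0.23, and -0.12 without the plate term, -0.090 summed by mouse name and -0.087 to 0.56 as plates were left out. For CCl4 in VSMC-like wells, Rgs3 was -0.38, and 0.056 with at least 20 wells and -1.03 to 0.37 as plates were left out. Rgs4 was -0.44, and 0.11 summed by mouse name and -1.31 to 0.65 as plates were left out, and Rgs5 was 0.35, and -0.27 to 1.07 as plates were left out.

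No paired analysis was possible because the uninjured portions of plates 1 to 5 carry no mouse number that injured portions share, and 10X has 1 library per condition. In 10X, 123 ratios of the RGS genes stayed within the counting interval of the reported ratio and 29 did not.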
